A study of Mus musculus with 4 samples.

Results

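The genes described here are 10 targets of the FOXO transcription factors, Sesn1, Sesn3, Ccng2, Bcl6, Irs2, Insr, Txnip, Cited2, Pink1 and Gabarapl1, out of 18193 genes measured. They were chosen as known FOXO targets and not by their values, though earlier results of these data were known. Every probe set annotated with exactly 1 of these symbols was taken, 22 in all, and the brightest of a gene's probe sets, by its mean over the 4 arrays, stands for the gene, the others being shown later. Messenger RNA was measured on 4 one-colour Affymetrix arrays, 2 of miR-205 knockout (KO) and 2 of wild-type (WT) hair follicle stem cells, sorted by flow cytometry from the skin of C57BL/6 mice at postnatal day 4. The titles number the biological replicates 1 and 2 in each group. The labels give neither the allele deleted, the sort gate nor the number of animals behind an array. The treatment text of all 4 samples describes another system, the alleles K14-rtTA/TRE-miR-203/K14-H2BGFP with doxycycline, in which the K14 promoter drives expression in basal epidermis, and it was not used to assign groups.

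FOXO proteins are forkhead transcription factors that stand at the end of the PI3K and AKT pathway. When growth factors or insulin activate AKT, it phosphorylates FOXO proteins, which are then held in the cytoplasm by 14-3-3 proteins. When AKT activity is low they enter the nucleus and raise transcription of genes for growth factor feedback, stress resistance, cell cycle arrest and autophagy, so that messenger RNA of such targets is used as a readout of AKT activity. The study is known for linking miR-205 to negative regulators of this pathway in skin stem cells. The microRNA missing in the KO cells is shown here from RefSeq (GRCm38.p6, chr1:193507503-193507524, minus strand), with the seed, bases 2 to 8, in capitals.
mmu-miR-205-5p: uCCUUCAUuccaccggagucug

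FOXO proteins bind the forkhead consensus GTAAACA and the insulin response element core CAAAACA. Both were searched on both strands of the RefSeq promoter windows of GRCm38.p6, each of 300 bases. Of the 10 genes, 9 had at least 1 window, 11 windows in all. GTAAACA was found in 2 of the 11 windows, against 3.65% of all 32851 windows, and CAAAACA in 2 of the 11, against 6.28%. The sequence around each match is printed because it shows where FOXO letters lie near the start of these genes, with the match in capitals. The motifs are those of other forkhead proteins too, and a match is not a site of binding.
Txnip, chr3:96557707-96557956, plus strand, the 250 bases before the start: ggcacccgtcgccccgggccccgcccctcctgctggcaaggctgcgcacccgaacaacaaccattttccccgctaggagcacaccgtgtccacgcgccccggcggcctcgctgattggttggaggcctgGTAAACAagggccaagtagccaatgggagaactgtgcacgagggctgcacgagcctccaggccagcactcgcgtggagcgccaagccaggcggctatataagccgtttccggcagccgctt
Sesn1, chr10:41810585-41810614, plus strand: gaaccttctacTGTTTACcagccttttggg
Ccng2, chr5:93267546-93267575, plus strand: cgtcgcagactCAAAACAaaaacaaggggt
Irs2, chr8:11008948-11008977, minus strand: gagtcacgtgtTGTTTTGctcttagttcag

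In Sesn1 and Irs2 the match reads as the reverse complement, TGTTTAC and TGTTTTG. Counted from the RefSeq start site, the first base of the match lay at -121 in Txnip, at 23 in Sesn1, at -16 in Ccng2 and at -37 in Irs2. The Irs2 and Txnip genes, whose KO minus WT differences were among the largest of the 10, and Ccng2 and Sesn1, whose differences were among the smallest, each held 1 match. Among 28 other FOXO targets, 25 had windows, and GTAAACA was found in 3 and CAAAACA in 2 of their 30 windows.

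No FOXO target passed the test between KO and WT cells. With limma across all genes, 0 of the 10 had a Benjamini-Hochberg adjusted p under 0.05, where 2 of 18193 genes (0.0110%) did, and 0 of the 10 had an unadjusted p under 0.05, where 342 genes (1.88%) did. The smallest unadjusted p among them was 0.201, for Irs2, and the adjusted p was 1 for each (limma). KO minus WT differences on the log2 scale ran from -0.25 for Gabarapl1 to 0.23 for Txnip, which is 0.839-fold to 1.17-fold. Their median was -0.04, beside 0.01 over all genes, and their median size regardless of sign was 0.08, beside 0.07. For 9 of the 10 genes the 95% interval of the difference lay between a 2-fold fall and a 2-fold rise. Txnip, with an interval from -0.69 to 1.14, was the exception. The share of all genes with an interval inside these limits was not counted. The median SE was 0.09 over all genes and 0.18 for the 10. The intervals come from 2 arrays per group and hold no term for the replicate number. The labels do not say whether replicates came from separate animals, so the tests measure only the spread between these samples.

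**Figure D1:**
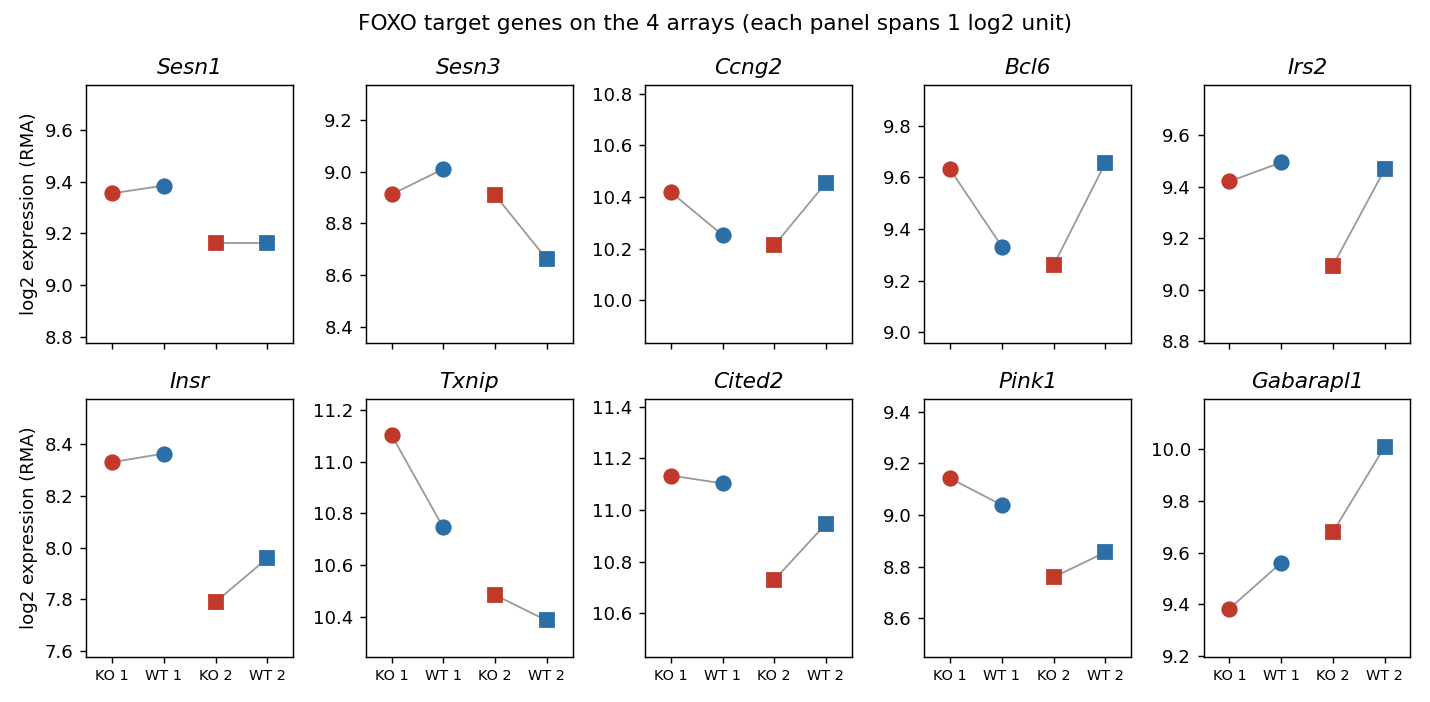
Log2 expression of each FOXO target on the 4 arrays, 1 panel per gene, with KO in red, WT in blue, number 1 as circles and number 2 as squares, and grey lines joining the arrays of 1 number. Each vertical axis spans 1 log2 unit. Insr, Txnip, Cited2, Pink1, Sesn1 and Sesn3 are higher on both number 1 arrays than on both number 2 arrays, and Gabarapl1 is lower.

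Insr and Irs2 encode the receptor for insulin and the adaptor that couples it to PI3K, and FOXO proteins raise both as feedback when signalling is low. Insr was at 8.33 on KO 1, 7.79 on KO 2, 8.36 on WT 1 and 7.96 on WT 2. Its groups overlapped, since the number 1 arrays were high and the number 2 arrays low in both genotypes. The difference was -0.10 (SE 0.28, 95% interval -0.97 to 0.76), being -0.03 within number 1 and -0.17 within number 2. Irs2 was at 9.42 on KO 1, 9.09 on KO 2, 9.49 on WT 1 and 9.47 on WT 2. It was the 1 gene of the 10 with both KO arrays below both WT arrays, an arrangement found in 5.70% of all genes, and none had both KO arrays above both WT arrays, as 8.20% of all genes did. The difference of Irs2 was -0.22 (SE 0.14, 95% interval -0.65 to 0.21, limma unadjusted p = 0.201). It was -0.07 within number 1 and -0.37 within number 2, so most of it came from KO 2, and without KO 2 it was -0.06.

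Sesn1 and Sesn3 encode sestrins, stress proteins that restrain mTORC1. Sesn1, which is also a target of p53, was at 9.35 on KO 1, 9.16 on KO 2, 9.38 on WT 1 and 9.16 on WT 2. KO 2 and WT 2 had exactly the same value, and the difference was -0.02 (SE 0.12). Sesn3 was at 8.91 on both KO 1 and KO 2, at 9.01 on WT 1 and at 8.66 on WT 2. The KO arrays lay between the WT arrays, and the difference was 0.08 (SE 0.15), being -0.10 within number 1 and 0.25 within number 2. WT 1 was highest and WT 2 lowest in Sesn3, as in the median of the dermal fibroblast markers described further on. In its dimmer probe set KO 2 was highest, at 8.28, and a link with those markers was not tested.

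Txnip encodes a protein that inhibits thioredoxin and limits glucose uptake, and it also responds to the glucose sensors MondoA and ChREBP. It was at 11.10 on KO 1, 10.48 on KO 2, 10.75 on WT 1 and 10.39 on WT 2. KO was above WT within both numbers, by 0.36 and 0.10, and it was the 1 gene of the 10 for which this held, as it did for 24.0% of all genes. The groups still overlapped, because WT 1 was above KO 2, and the difference was 0.23 (SE 0.29, limma unadjusted p = 0.489). Without KO 1 it was -0.08. Txnip had the widest range of the 10 over the arrays, 0.72. The genes outside the lists whose 4 deviations from their own mean were most like those of Txnip were Ggps1, Plpp6 and Rin2, with a mean absolute distance of 0.0062, 0.013 and 0.015 over the 4 arrays.

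Among genes that act with Txnip, 9 were measured, and 0 passed the adjusted threshold (limma). Txnrd1, the cytosolic thioredoxin reductase that keeps thioredoxin reduced, was at 11.29 on KO 1, 11.30 on KO 2, 10.71 on WT 1 and 10.73 on WT 2. Its groups did not overlap, and the difference was 0.57 (SE 0.04, limma unadjusted p = 6.0e-04, adjusted p = 1). The dimmer probe sets of Txnrd1 differed by 0.37 and 0.11. The glucose transporter gene Slc2a1 differed by -0.20 (SE 0.11) and the hexokinase gene Hk2 by -0.18 (SE 0.11). The median of the 9 was 0.0042.

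Ccng2, Bcl6 and Cited2 are regulators of division and transcription. Ccng2 encodes cyclin G2, an unusual cyclin linked to cell cycle arrest. It was at 10.42 on KO 1, 10.21 on KO 2, 10.25 on WT 1 and 10.46 on WT 2, a difference of -0.04 (SE 0.12). Bcl6, a transcriptional repressor, was at 9.63 on KO 1, 9.26 on KO 2, 9.33 on WT 1 and 9.66 on WT 2, a difference of -0.05 (SE 0.20). In both genes the arrays fell in the order WT 2, KO 1, WT 1 and KO 2. The sign of the difference therefore turned between the numbers, from 0.17 to -0.24 for Ccng2 and from 0.30 to -0.40 for Bcl6. Cited2, a transcriptional co-regulator that limits the hypoxia factor HIF1, was at 11.13 on KO 1, 10.73 on KO 2, 11.10 on WT 1 and 10.95 on WT 2. The number 1 arrays were nearly level and KO 2 was lowest, and the difference was -0.09 (SE 0.18). Of 12 hypoxia genes, 7 were higher and 5 lower in KO cells and 0 passed (limma), with a median of 0.02, and Adm, adrenomedullin, differed by -0.22 (SE 0.13).

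Pink1 and Gabarapl1 belong to the clearance of damaged organelles. Pink1, the kinase that marks damaged mitochondria, was at 9.14 on KO 1, 8.76 on KO 2, 9.04 on WT 1 and 8.86 on WT 2. The KO arrays lay on either side of both WT arrays and the difference was 0.0040 (SE 0.18), a value whose sign turned with another normalization. Gabarapl1, an ATG8 protein of the autophagosome membrane, was at 9.38 on KO 1, 9.68 on KO 2, 9.56 on WT 1 and 10.01 on WT 2. KO was below WT within both numbers, by 0.18 and 0.33 in size, and the groups overlapped because KO 2 was above WT 1. The difference was -0.25 (SE 0.22, 95% interval -0.95 to 0.44, limma unadjusted p = 0.331). By the probe sets used, it was the 1 gene that was lower on both number 1 arrays than on both number 2 arrays. Of 17 other ATG8 and autophagy genes, 11 were higher and 6 lower in KO cells and 0 passed (limma). Their median was 0.04, with the initiating kinase gene Ulk1 at -0.15 (SE 0.11), Map1lc3a, another ATG8 gene, at 0.08 (SE 0.06) and the conjugating enzyme gene Atg3 at 0.08 (SE 0.06).

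**Figure D2:**
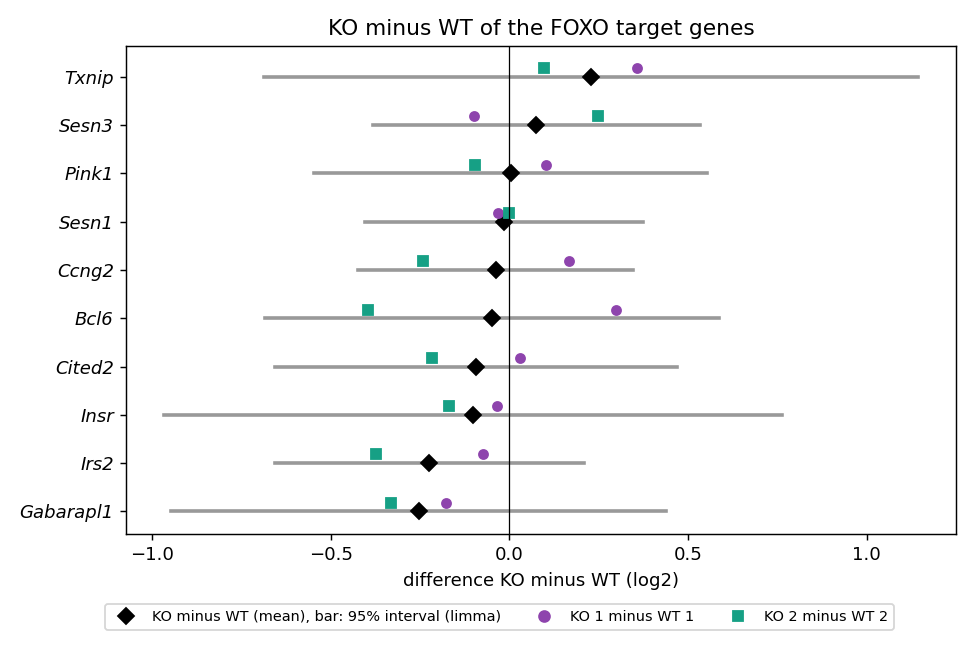
KO minus WT on the log2 scale for the FOXO targets, ordered by size, with the mean difference as black diamonds and its 95% limma interval as grey bars. Purple circles are KO 1 minus WT 1 and green squares KO 2 minus WT 2. All 10 intervals cross 0, and the circles and squares of Bcl6, Ccng2, Cited2, Pink1 and Sesn3 lie on opposite sides of it.

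The numbers did not give 1 direction. KO was lower than WT within both numbers for 3 genes, Irs2, Insr and Gabarapl1, as for 16.8% of all genes. The signs were opposite for 5 genes, Sesn3, Ccng2, Bcl6, Cited2 and Pink1, as for 34.8% of all genes. The median difference was 9.6e-05 within number 1 and -0.19 within number 2, both being 0 over all genes. KO 2 was the lowest of the 4 arrays in 6 genes, Ccng2, Bcl6, Irs2, Insr, Cited2 and Pink1, as in 18.7% of all genes. Of the 10 mean differences 7 were below 0, as were 45.5% of those of all genes, and that count rested on KO 2. Without KO 2 the median was 0.09 and 2 genes were below 0, and without KO 1 the median was -0.16 and 9 were below 0. Without WT 1 the median was 0.04 and 5 genes were below 0.

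By the probe sets used, the arrays differed more by replicate number than by genotype for most of these genes, as for most of all genes. The mean of the number 1 arrays minus that of the number 2 arrays was larger in size than KO minus WT for 7 of the 10 genes, as for 62.0% of all genes. Both number 1 arrays were above both number 2 arrays for 6 genes, Sesn1, Sesn3, Insr, Txnip, Cited2 and Pink1, against 22.0% of all genes. They were below for 1, Gabarapl1, against 21.7%. The difference between the numbers was 0.49 for Txnip, 0.47 for Insr, 0.28 for Cited2 and for Pink1, and -0.37 for Gabarapl1. The median size was 0.24 for the 10 genes and 0.11 for all genes. It was 0.20 for 28 other FOXO targets, 0.25 for immediate early genes, 0.15 for FOXO cofactors and 0.14 for autophagy genes. FOXO factors had 0.45, the insulin and IGF receptor axis 0.23 and hair follicle stem cell markers 0.22. Over all lists it ran from 0.07 for endothelial markers to 1.57 for dermal fibroblast markers. All 10 genes were above the limit used for dim genes, as were 10916 of all 18193 genes. What differed between the numbers besides the animals or cells is not given in the labels.

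**Figure D3:**
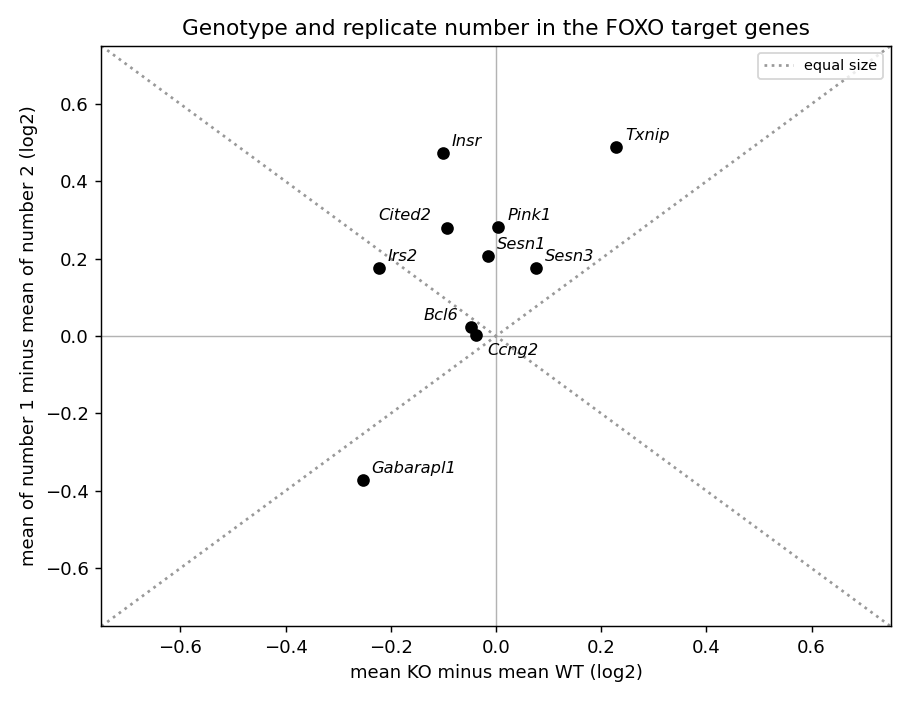
Each point is a FOXO target, with mean KO minus mean WT on the horizontal axis and the mean of the number 1 arrays minus that of the number 2 arrays on the vertical axis, both on the log2 scale. Dotted lines mark equal size. Insr at 0.47 and Txnip at 0.49 lie highest, and Gabarapl1 at -0.37 lowest. Of the 10 points 7 are farther from 0 vertically than horizontally, as holds for 62.0% of all genes.

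The number also moved with other measures, whose part in these values was not tested. The 14 dermal fibroblast markers measured, of 15 listed, had a median log2 value of 9.98 on KO 1, 8.96 on KO 2, 11.29 on WT 1 and 8.75 on WT 2. For 13 of the 14 both number 1 arrays were above both number 2 arrays, and their summed linear level was 33685 and 17916 on the KO arrays and 58094 and 14177 on the WT arrays. In the mean of the groups all 14 were lower in KO cells, with a median of -0.42, which rested on WT 1: without it 1 of the 14 was lower and the median was 0.67. Without KO 2, 8 were lower and the median was -0.03. The 5′ probe set of 18S ribosomal RNA read 11.51 and 11.59 on the number 1 arrays of KO and WT cells, and 9.46 and 9.40 on their number 2 arrays. The 3′ probe set of 18S read 11.19 and 11.67 against 10.64 and 10.68, while the 5′ probe set of actin went the other way, at 13.62 and 13.60 against 14.03 and 13.87. The 3′ probe set of actin was nearly level, at 14.29 and 14.23 against 14.34 and 14.26. For Gapdh the 5′ probe set read 12.54 and 12.72 against 13.10 and 13.02, and the 3′ probe set 12.69 and 12.75 against 12.99 and 12.91. Immediate early genes, which respond to cell dissociation, had a median KO minus WT difference of 0.04 within number 1 and -0.16 within number 2. KO 2 was lowest in 12 of the 19. Their summed linear level was 101887 and 93343 on the KO arrays and 100113 and 102628 on the WT arrays, and Fosb, which is in this list, differed by -0.49 (SE 0.13, limma unadjusted p = 0.029, adjusted p = 1). In sorted bulk cells, fewer cells of a type and less RNA per cell cannot be told apart. The lowest value in the table is 2.51 and it has no detection calls, so no marker can be called absent.

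Of 14 markers of the labelled cell type, hair follicle stem cells, 13 were above the level used as a limit for dim genes, the exception being Fgf18. So were 10916 of all 18193 genes and 13 of the 14 dermal fibroblast markers. This count therefore cannot tell the labelled cells from other cells. Krt15, a keratin of the follicle bulge, was at 13.83 on KO 1, 14.05 on KO 2, 13.62 on WT 1 and 13.78 on WT 2. Krt15 differed by 0.24, the largest rise of the stem cell list, in which differences reached down to -0.48. In this list 7 genes were higher, 6 lower and 1 equal in KO cells. Its median difference was 0.01, and was -0.19 without KO 1 and 0.11 without WT 1. Of 10 immune markers 6 were higher and 3 lower in KO cells, with a median of 0.05. Of 8 melanocyte markers 3 were higher and 5 lower, with a median of -0.08 and Mitf at -0.47 (SE 0.06). The 3 lists that follow lay mostly to 1 side by genotype. Of 9 markers of differentiated epidermis 8 were higher in KO cells, with a median of 0.20, and for 4 the KO arrays lay above the WT arrays. Krt1, a keratin of the layers above the basal one, was at 11.37 on KO 1, 11.31 on KO 2, 10.32 on WT 1 and 9.86 on WT 2, and differed by 1.25 (SE 0.19, limma unadjusted p = 0.0065, adjusted p = 1), while its partner Krt10 differed by 0.81 (SE 0.28). The summed linear level of the 9 was 14418 and 14606 on the KO arrays and 10656 and 9095 on the WT arrays. Of 10 basal keratinocyte markers 8 were higher (median 0.14, summed linear level 54378 and 52103 against 49841 and 47575). Of 10 endothelial markers, 4 of them above the limit for dim genes, 8 were lower (median -0.12, summed linear level 530 and 549 against 624 and 613). None of the genes in these 3 lists passed the adjusted threshold, and their part in the values of the FOXO targets was not tested. Genes that mark sex separated the genotypes, with Xist at 5.26 and 5.45 on the KO and 13.28 and 13.19 on the WT arrays (limma adjusted p = 0.038), and Eif2s3y, on the Y chromosome, at 9.59 and 9.57 against 3.05 and 2.86 (limma adjusted p = 0.038). Those were the 2 genes that passed. Genotype and sex cannot be told apart for the FOXO targets, and the deleted microRNA itself has no value here.

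Most genes had more than 1 probe set, and several of these differed in direction. Both probe sets of Txnip were higher in KO cells within both numbers, the dimmer by 0.34 and 0.17. The 2 disagreed on the number, since the dimmer one was at 8.69 on KO 1 and 8.35 on WT 1 but at 8.86 on KO 2 and 8.69 on WT 2, so that the number 1 arrays were not the high ones. Both probe sets of Gabarapl1 were lower in KO cells within both numbers, the dimmer by 0.29 and 0.43 in size, with values of 8.28 on KO 1, 8.74 on KO 2, 8.57 on WT 1 and 9.17 on WT 2. Irs2 had a single probe set.

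The dimmer probe set of Sesn3 was at 8.16 on both number 1 arrays, 8.28 on KO 2 and 7.92 on WT 2, a difference of 0.18. The 3 other probe sets of Sesn1 differed by -0.25, 0.03 and 0, the last having the same value, 4.18, on all 4 arrays. Those of Cited2 (-0.09 and -0.06) and Pink1 (0.0040 and 0.07) kept their sign. The dimmer probe sets of Ccng2 and Bcl6 differed by 0.15 and 0.05, against -0.04 and -0.05 for the brighter ones. Both kept a higher KO value within number 1 and a lower one within number 2. The dimmer one of Ccng2 was lower on the number 1 arrays, unlike the brighter. It was at 7.66 on KO 1, 8.06 on KO 2, 7.30 on WT 1 and 8.12 on WT 2. The 2 other probe sets of Insr were dim, at 5.26 to 5.35 and 3.64 to 3.70, and differed by 0.04 and -0.03. Over all 22 probe sets, the numbers gave the same sign in 9, opposite signs in 9 and a difference of exactly 0 within at least 1 number in 4.

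**Figure D4:**
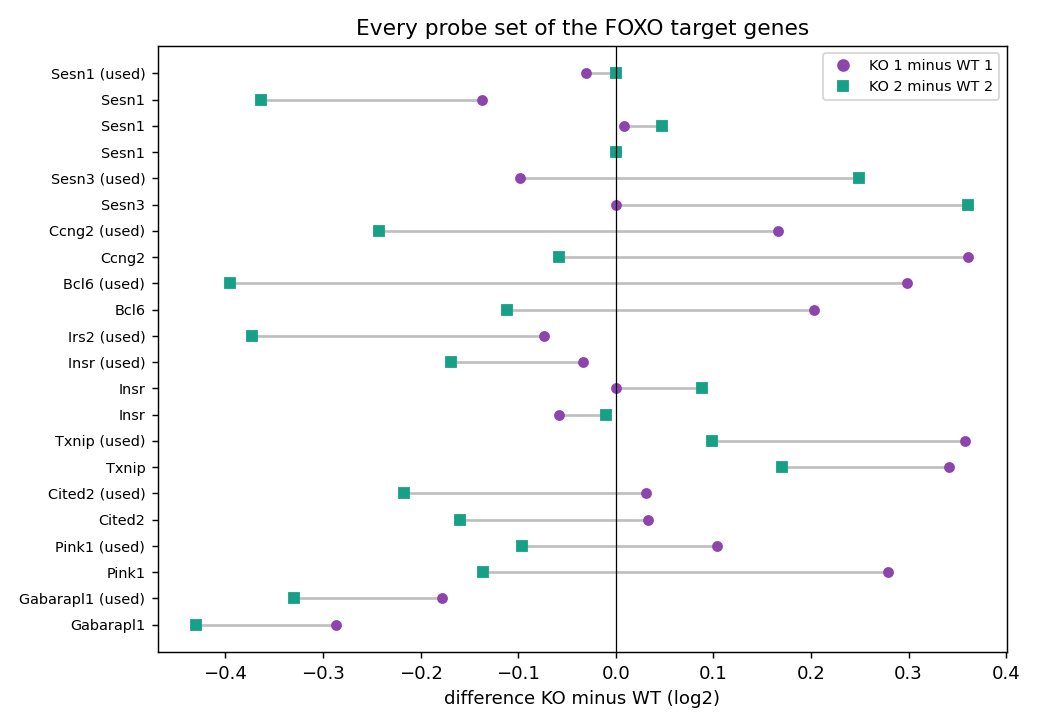
KO minus WT on the log2 scale for all 22 probe sets of the FOXO targets, grouped by gene with the brightest, used one first. Purple circles are KO 1 minus WT 1 and green squares KO 2 minus WT 2. Both probe sets of Gabarapl1 lie to the left of 0 and both of Txnip to the right, while those of Bcl6 and Ccng2 straddle it.

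The 3 FOXO factors measured each differed between genotypes by less than the SE of the difference. Foxo1, the factor best known from insulin signalling, was at 9.79 on KO 1, 9.32 on KO 2, 9.63 on WT 1 and 9.20 on WT 2, a difference of 0.14 (SE 0.26). Foxo3, known for maintaining stem cells in several tissues, was at 9.05 on KO 1, 8.70 on KO 2, 9.15 on WT 1 and 8.61 on WT 2, a difference of -0.0030 (SE 0.26). Foxo1 and Foxo3 were high on the number 1 arrays, as most of the 10 targets were. Foxo4 was at 7.72 on KO 1, 8.14 on KO 2, 7.64 on WT 1 and 8.08 on WT 2, a difference of 0.07 (SE 0.25), with the number 1 arrays low. AKT controls FOXO proteins by phosphorylation, which these arrays do not measure.

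Genes around the FOXO proteins gave 0 adjusted calls in each list named here (limma). Of 9 AKT and SGK kinase genes and their activators, 4 were higher and 5 lower in KO cells, with a median of -0.02. Rictor, the mTORC2 subunit through which AKT is fully activated and itself a FOXO target, differed by -0.14 (SE 0.07), Sgk3 by 0.19 (SE 0.13) and Akt1 by -0.07 (SE 0.06). Of 19 cofactors and modifiers of FOXO proteins 9 were higher and 10 lower, with a median of -1.9e-04. Kat2b, an acetyltransferase, differed by 0.21 (SE 0.11), Skp2, a ubiquitin ligase subunit that targets FOXO1, by 0.26 (SE 0.16) and the 14-3-3 gene Ywhag by -0.14 (SE 0.09). Skp2 was at 0.094 without KO 1, and Ywhag at -0.031 without KO 2. None of the genes of these 2 lists had an unadjusted p under 0.05.

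Of 14 genes of the insulin and IGF receptor axis 6 were higher and 8 lower in KO cells, with a median of -0.08, and 0 had an unadjusted p under 0.05 (limma). Igf1r, the receptor for IGF1 and another FOXO target, differed by -0.16 (SE 0.11), and was at -0.029 without KO 1. The growth factor gene Igf2 differed by -0.50 (SE 0.29), and was -0.98 within number 1, -0.01 within number 2, -0.20 without WT 1 and -0.30 without KO 1. The 4 PI3K brakes linked to miR-205 were all higher within both numbers. Inpp4b differed by 0.74 (SE 0.31), by 0.45 without WT 1 and by 0.32 with its probe sets averaged. Inppl1 differed by 0.38 (SE 0.13), Frk by 0.38 (SE 0.07, limma unadjusted p = 0.013, adjusted p = 1) and Phlda3 by 0.33 (SE 0.13). The study may have picked them from these same arrays, in which case their direction is no independent evidence.

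The other FOXO targets went both ways as well. Of 28 measured, 13 were higher and 15 lower in KO cells, with a median of -0.02, and 0 had an adjusted or an unadjusted p under 0.05 (limma). Differences ran from -0.24 to 0.39. Erbb3, an EGF family receptor gene, was at 10.79 on KO 1, 10.51 on KO 2, 10.45 on WT 1 and 10.25 on WT 2, the KO arrays lying above the WT arrays, and differed by 0.30 (SE 0.14). Bbc3, the apoptosis gene for PUMA and a p53 target as well, was at 7.21 on KO 1, 7.31 on KO 2, 7.37 on WT 1 and 7.64 on WT 2, the KO arrays lying below the WT arrays, and differed by -0.24 (SE 0.12). Fasl, a death ligand gene, differed by 0.23 (SE 0.10) but was dim on every array. Within both numbers 10 of the 28 were higher and 5 lower. KO 2 was lowest in 5 of the 28, and both number 1 arrays were above both number 2 arrays in 9 and below in 8. Of 13 p53 targets 8 were higher and 5 lower, with a median of 0.01 and 0 adjusted calls (limma), and 1, Tnfrsf10b, a dim death receptor gene, had an unadjusted p under 0.05 with a difference of 0.18 (SE 0.04).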

How the data were processed

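The deposited table holds log2 expression values per probe set, which the authors computed by RMA (no version given), per the submitters' processing notes. RMA in general corrects background, equalises array distributions and summarises probes. Array medians were 5.85 to 5.87, and exactly equal values on 2 or more arrays occurred in 47.1% of 45101 probe sets. There are no detection calls, so it cannot be said which dim genes were detected, and the number of arrays limits the precision. Folds of dim genes may be understated, which was not tested. Probe sets were named from the GEO platform annotation, updated by gene identifier to GRCm38.p6 RefSeq symbols (34741 of 34945 probe sets with 1 symbol matched). The brightest probe set stood for each of 18193 genes.

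The KO minus WT contrast was fitted across all genes in limma 3.58.1 under R 4.3.3, as a two-sided eBayes test with Benjamini-Hochberg adjustment and no covariate. The fit was tested on simulated data. Named genes were the 10 FOXO targets, every FOXO factor and PI3K brake, at most 3 of smallest p per other list, and the 3 profiles most like that of the member of widest range. The members and lists were chosen with earlier results of these data known. Alternatives were normalization, a filter below the 40th percentile of gene means, probe set choice, a replicate block, eBayes with a trend, the threshold and leaving out each array. Motifs were exact string matches in RefSeq promoter sequences. The count of FOXO targets below 0 and the medians of the other lists without single arrays were alternatives chosen after seeing the data.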

Additional observations from a re-analysis of the deposited data

How the results depend on the processing

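No alternative brought a FOXO target past the threshold: the count stayed at 0 with each normalization, filter, probe set choice, prior, threshold and left-out array. The 2 genes past the threshold became 3 with quantile normalization again and with median centring, the third being the Y-linked Kdm5d (limma adjusted p = 0.0040 and 0.025). They became 0 with averaged probe sets per gene, with every probe set by itself, with the replicate block and without any 1 array. The titles share numbers but do not say that these mark a pair. Arrays of 1 number deviated together (r = 0.56 across genes, which are not independent). With the replicate block 0 genes and 0 members passed, while 879 of 18193 genes had an unadjusted p under 0.05. So did 1 of the 10 members, Gabarapl1 (difference -0.25, limma unadjusted p = 0.046, adjusted p = 0.81).

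The median over the 10 genes ran from -0.16 to 0.094 and the count below 0 from 2 to 9 when single arrays were left out, the highest median and the lowest count both being those without KO 2. Leaving out single arrays gave -0.13 to 0.10 for Sesn1, -0.10 to 0.25 for Sesn3, -0.14 to 0.065 for Ccng2, -0.23 to 0.14 for Bcl6, -0.37 to 0.17 for Insr, -0.081 to 0.54 for Txnip, -0.30 to 0.11 for Cited2 and -0.19 to 0.20 for Pink1, so these turned sign. So did Foxo1 (-0.093 to 0.37), Foxo3 (-0.27 to 0.27) and Foxo4 (-0.15 to 0.29). Irs2 (-0.39 to -0.06) and Gabarapl1 (-0.48 to -0.03) did not. No other gene followed through the alternatives changed its side of the threshold except the sex-linked ones. Of these, Xist and Eif2s3y no longer passed with averaged probe sets, the replicate block or any 1 array left out. Of 38 genes followed outside the 10 and the sex-linked list, 32 moved by over 1.5 times without at least 1 array and 15 with averaged probe sets, so their sizes are loose. Ggps1, Plpp6, Rin2 and the basal, dermal fibroblast, endothelial, immune and melanocyte markers were not followed gene by gene. Ccng2 was at 0.057 with its probe sets averaged, and Pink1 at -0.0090 with quantile normalization again and -0.0046 with median centring.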
